A study of Mus musculus with 6 samples.

Results

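The genes examined were 47 genes of synaptic adhesion and of the postsynaptic scaffold, measured by RNA-seq in whole brains of mice fed a diet with or without PLDP, a protease-treated product of porcine liver. They were chosen by name, without use of their values, as the rows of the count files whose Ensembl identifiers carry the 47 symbols in GENCODE M21, the mouse annotation on GRCm38. All 47 were among the 60354 features of the files, and 46 passed the filter on low counts. The control mice were male C57BL/6NCrSlc fed a modified AIN-93M diet adjusted to the calories of the other diet, and the PLDP mice were males of the same strain fed modified AIN-93M with 20% PLDP. Feeding began at 16 weeks of age and lasted 16 weeks, and was followed by behavioral tests during which PLDP was not given. RNA was taken after the tests from 3 of the 13 mice on each diet, and each library is a separate animal. The control mice carry the numbers 2, 5 and 10, and the PLDP mice 17, 22 and 26. Whole brain holds many regions and cell types, so a lower share of a cell type and less RNA per cell cannot be told apart in these values.

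At a synapse, adhesion proteins on the axon and on the receiving neuron bind each other across the cleft. Neurexins and LAR-type receptor phosphatases act mainly from the presynaptic side, and neuroligins, Lrrtm, Slitrk and Lrfn proteins and Il1rapl1 are their partners or act on the postsynaptic side. Behind the postsynaptic membrane of excitatory synapses, Dlg proteins hold glutamate receptors and adhesion proteins, Dlgap proteins bind the Dlg proteins, and Shank proteins link the Dlgap proteins to Homer proteins and to the actin cytoskeleton. The comparison asked whether the RNA of these genes differed in level between PLDP and control mice.

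Total counts were between 18797061 and 23938729 per mouse. Levels are given as CPM, which relates counts to the library total, scaled with TMM factors, which correct for differences in library composition. Genes are described as called where edgeR's quasi-likelihood test gave an unadjusted p under 0.05, the threshold of the study, and Benjamini-Hochberg adjusted values over all 18580 features tested are given beside it. With 3 mice against 3, the smallest p of an exact two-sided permutation test is 0.1. PLDP mouse 17 stood apart from the other PLDP mice. The chi-square per degree of freedom over all features with enough counts was 5.33 and 5.03 for its pairs with mice 22 and 26, against 2.44 for mice 22 and 26 and 2.36 to 3.12 among the control mice. Counting noise alone would give a value near 1, and every pair on the same diet lay above that. The main counts and the called genes are therefore also given without mouse 17. Mouse 17 was singled out from these same data, and it was the lowest PLDP mouse in 11 of the 12 called genes. Its removal raised the fold changes of those 11, so the values without it are a description and no separate support. Among the fits that left out a mouse, only this one gave an adjusted p under 0.05 for any of the genes.

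Of the 46 genes tested, 12 were called higher in PLDP mice and 0 were called lower. This is 26.1% of the genes, beside 4.91% of all features tested that were called higher and 3.69% that were called lower. Abundant genes are measured with less error, and among the 10024 features at least as abundant as the least abundant of the 46 genes, 5.72% were called higher and 4.33% lower. None of the 46 genes had an adjusted p under 0.05, which 0.0323% of all features tested had, and the lowest adjusted p of the 46 was 0.147 by edgeR. Without PLDP mouse 17, 17 genes were called higher and 1 lower, beside 6.86% of all features called higher, and 5 had an adjusted p under 0.05 by edgeR, beside 0.966% of all features tested in that fit. The count of genes called higher fell to 7 without control mouse 10 and to 7 without PLDP mouse 26, beside 4.93% and 3.91% of all features. It was 8 without control mouse 5 or PLDP mouse 22, beside 3.77% and 4.2%, and 10 without control mouse 2, beside 3.36%. The genes called with all 6 mice were Shank1, Shank2, Dlgap3, Dlgap4, Dlg4, Nrxn2, Nrxn3, Ptprs, Nlgn2, Lrrtm1, Lrrtm3 and Lrfn2. Their differences were small, between 5.79% and 19.1%, with a median log2 fold change of 0.128. Across the 46 genes, 31 fold changes were above 0 and 15 below, and the median log2 fold change was 0.032, beside -0.0006 for all features tested. Without mouse 17, 37 were above 0 and 9 below, with a median of 0.049. The standard errors of these fold changes were between 0.038 and 0.097.

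The groups did not overlap for 12 genes, in each of which the 3 PLDP mice lay above the 3 control mice. That is 26.1% of the 46 genes, beside 7.29% of all features tested. In 0 of the 46 genes did the 3 PLDP mice all lie below the controls, beside 6.90% of all features tested. Of the called genes, 10 were among these 12, and the remaining pair, Dlg3 and Iqsec1, missed the threshold. Nrxn2 and Nrxn3 were called although 1 PLDP mouse lay within the control values. With 1 mouse fewer, separation is more frequent over all features. Without PLDP mouse 17, 23 genes lay above and 1 below, beside 14.7% and 14.5% of all features. Without PLDP mouse 22, 12 lay above and 4 below, beside 12.1% and 12.2%.

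**Figure D1:**
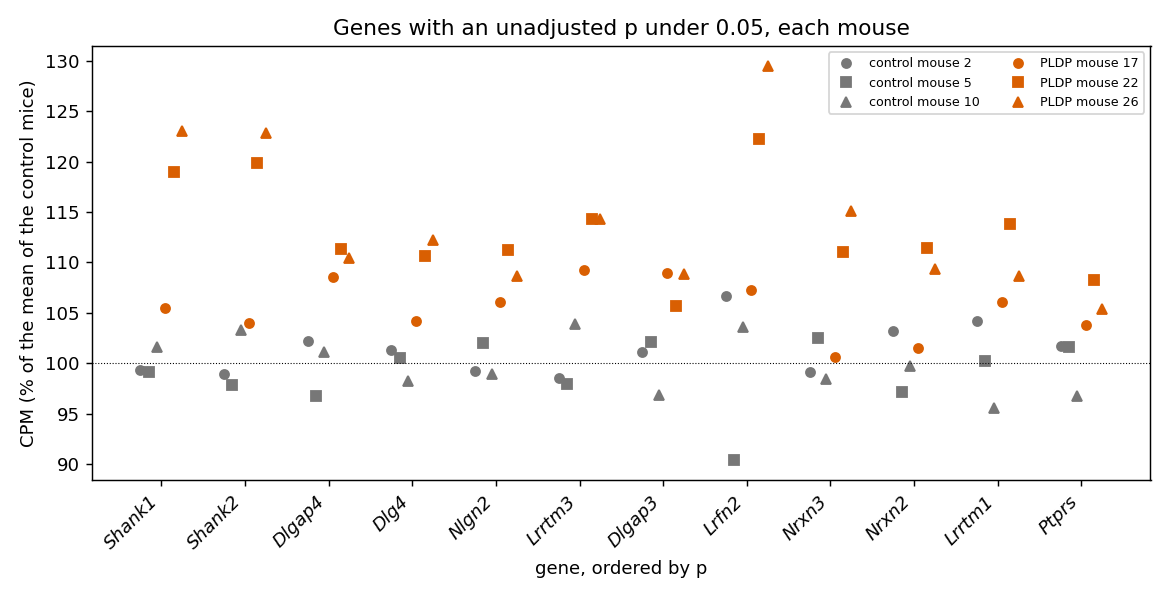
Level of the 12 genes called at an unadjusted p under 0.05, shown for each of 6 mice as CPM in percent of the mean of the 3 control mice, with genes ordered by p. Grey points are control mice and orange points PLDP mice. In 11 of the 12 genes mouse 17, the orange circle, is the lowest of the PLDP mice.

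The Shank genes encode the scaffolds that lie deepest in the postsynaptic density. Shank1 (chr7:44310253-44360572, plus strand) was at 424.8, 423.8 and 434.4 CPM in control mice 2, 5 and 10, and at 451.2, 508.9 and 526.3 CPM in PLDP mice 17, 22 and 26. The groups did not overlap, and mouse 17 was the nearest to the controls. The log2 fold change was 0.21 ± 0.05 (SE), with a p of 0.000369 and an adjusted p of 0.147 by edgeR. Without mouse 17 it was 0.28, with an adjusted p of 0.000111 by edgeR. Shank1 shares 339 exonic bases with 1700008O03Rik on the opposite strand. Shank2 (chr7:144001928-144424494, plus strand) was at 125.0, 123.5 and 130.4 CPM in the controls and at 131.3, 151.4 and 155.1 CPM in the PLDP mice. Again mouse 17 lay just above the highest control, and mice 22 and 26 well above it. The log2 fold change of Shank2 was 0.21 ± 0.06 (SE), with a p of 0.00152 and an adjusted p of 0.261 by edgeR, and without mouse 17 the adjusted p was 0.00117. Shank3 was at 227.8, 232.0 and 236.9 CPM in the controls and at 225.0, 256.5 and 241.4 CPM in the PLDP mice. These values overlapped, and the log2 fold change of Shank3 was 0.05 ± 0.05 (SE), with a p of 0.262 by edgeR and of 0.0139 without mouse 17.

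All 4 Dlgap genes, whose products join Dlg to Shank proteins, had fold changes above 0, and 2 were called. Dlgap4 (chr2:156613705-156764363, plus strand) was at 239.3, 226.6 and 236.8 CPM in control mice and at 254.2, 260.7 and 258.6 CPM in PLDP mice. The 3 PLDP values lay close together and above every control. Its log2 fold change was 0.14 ± 0.04 (SE), with a p of 0.00237 and an adjusted p of 0.294 by edgeR, or 0.0565 without mouse 17. Dlgap3 (chr4:127169204-127237022, plus strand) was at 324.5, 327.5 and 310.7 CPM in control mice and at 349.7, 339.1 and 349.3 CPM in PLDP mice. It was the one called gene in which mouse 17 was not the lowest of the PLDP mice. For Dlgap3 the log2 fold change was 0.11 ± 0.04 (SE), with a p of 0.011 and an adjusted p of 0.421 by edgeR, or 0.215 without mouse 17, and the call was lost without control mouse 10. Dlgap2 lay just above the threshold, with 60.5, 64.1 and 61.0 CPM in control mice and 62.0, 73.4 and 66.1 CPM in PLDP mice. Mouse 17 lay within the control values of Dlgap2, and the p was 0.0606 with all mice and 0.00356 without mouse 17 by edgeR. Dlgap1 was at 339.5 to 376.4 CPM over the 6 mice, with overlapping groups and a log2 fold change of 0.02 ± 0.04 (SE).

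Dlg proteins are the membrane-associated guanylate kinases that anchor receptors at the synapse, and Dlg4 is the one most used as a marker of excitatory synapses. Dlg4 (chr11:70016942-70047522, plus strand) was at 493.4, 489.6 and 478.5 CPM in control mice and at 507.8, 539.1 and 546.9 CPM in PLDP mice. The groups did not overlap. For Dlg4 the log2 fold change was 0.13 ± 0.04 (SE), with a p of 0.00445 and an adjusted p of 0.326 by edgeR, and without mouse 17 the adjusted p was 0.0154. Dlg3 was at 148.0, 145.8 and 150.8 CPM in control mice and at 159.0, 156.2 and 151.2 CPM in PLDP mice. The groups of Dlg3 were separated by less than the spread within either, and its p was 0.106 by edgeR. The log2 fold changes of Dlg1 and Dlg2 were -0.02 ± 0.04 and -0.02 ± 0.04 (SE), with overlapping groups.

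The further scaffold genes among the 47, which are Homer2, Homer3, Begain, Iqsec1 and Iqsec2, were not called. Homer3, a member of the family that joins Shank proteins to metabotropic glutamate receptors, was at 96.1, 91.7 and 94.3 CPM in control mice and at 101.0, 87.5 and 80.6 CPM in PLDP mice. Mouse 17 was the highest and mouse 26 the lowest of all 6 mice, so the groups overlapped. Without mouse 17 Homer3 was the 1 gene called lower, with a log2 fold change of -0.16 and a p of 0.00341 by edgeR. Homer3 shares 874 exonic bases with Ddx49 on the opposite strand. Homer2 was at 57.2, 62.8 and 59.8 CPM in control mice and at 48.9, 67.3 and 63.8 CPM in PLDP mice, where mouse 17 was the lowest of the 6. Without mouse 17 Homer2 was called higher, with a log2 fold change of 0.13 and a p of 0.0212 by edgeR. Begain, which encodes a protein bound to Dlg4, was at 131.4, 136.4 and 131.6 CPM in control mice and at 143.7, 128.6 and 133.3 CPM in PLDP mice. Its groups overlapped. Iqsec1 and Iqsec2 encode exchange factors for Arf GTPases in the postsynaptic density, and their log2 fold changes were 0.05 ± 0.04 and -0.02 ± 0.04 (SE).

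The neurexins are presynaptic receptors for neuroligins and Lrrtm proteins, and both neurexins examined were called. Nrxn2 (chr19:6418731-6544169, plus strand) was at 431.2, 406.0 and 416.8 CPM in control mice and at 424.4, 465.8 and 457.1 CPM in PLDP mice. Nrxn3 (chr12:88722876-90334935, plus strand) was at 205.8, 212.9 and 204.4 CPM in control mice and at 208.9, 230.6 and 239.0 CPM in PLDP mice. In both genes mouse 17 lay among the controls, and mice 22 and 26 lay above them. The log2 fold change of Nrxn2 was 0.10 ± 0.04 (SE), with a p of 0.0239 and an adjusted p of 0.493 by edgeR. That of Nrxn3 was 0.12 ± 0.05 (SE), with a p of 0.0191 and an adjusted p of 0.461 by edgeR. Both calls were lost without control mouse 10, PLDP mouse 22 or PLDP mouse 26; that of Nrxn2 was also lost without control mouse 5 and that of Nrxn3 without control mouse 2. Without mouse 17 the adjusted p of Nrxn2 was 0.0468 and that of Nrxn3 0.0218 by edgeR. With GC content and length corrected in each library, the call of Nrxn2 was lost, with a log2 fold change of 0.06 and a p of 0.0724 by edgeR. Nrxn3 then had a log2 fold change of 0.11 and a p of 0.0117 by edgeR. Nrxn2 shares 889 exonic bases, and Nrxn3 439, with genes on the opposite strand.

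Ptprs, Ptprd and Ptprf are the LAR-type receptor phosphatases, whose postsynaptic partners include Slitrk proteins and Il1rapl1. Ptprs (chr17:56412426-56476483, minus strand) was at 388.5, 388.2 and 369.6 CPM in control mice and at 396.5, 413.5 and 402.6 CPM in PLDP mice. The groups did not overlap, but by a small margin. For Ptprs the log2 fold change was 0.08 ± 0.04 (SE), with a p of 0.0469 and an adjusted p of 0.568 by edgeR, or 0.234 without mouse 17, and the call was kept only in the fit without mouse 17 among the 6 fits that left out a mouse. The call of Ptprs was also lost with GC content and length corrected in each library, where its log2 fold change was 0.04, with a p of 0.307 by edgeR. Ptprd and Ptprf had log2 fold changes of 0.05 ± 0.04 and -0.01 ± 0.05 (SE) and overlapping groups, and without mouse 17 the p of Ptprd was 0.0291 by edgeR.

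Nlgn2 encodes the neuroligin of inhibitory synapses, unlike the scaffolds above, which are proteins of excitatory synapses. Nlgn2 (chr11:69823122-69837784, minus strand) was at 232.0, 238.5 and 231.3 CPM in control mice and at 248.0, 260.2 and 254.2 CPM in PLDP mice. The groups did not overlap. For Nlgn2 the log2 fold change was 0.12 ± 0.04 (SE), with a p of 0.00647 and an adjusted p of 0.363 by edgeR, or 0.0715 without mouse 17. Nlgn1, the neuroligin of excitatory synapses, was at 54.4, 53.2 and 51.0 CPM in control mice and at 51.4, 53.2 and 56.4 CPM in PLDP mice, with overlapping groups. Nlgn3 was the gene that did not pass the filter, with 1 to 5 counts per mouse, or 0.0485 to 0.267 CPM. In the annotation, 3823 of the 9271 exonic bases of Nlgn3 are shared with Gm21986 on the same strand, and the part of this overlap in the low count was not tested. No comparison between the diets was made for Nlgn3.

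Lrrtm proteins are leucine-rich repeat proteins of excitatory synapses that bind neurexins, and 2 of the 4 were called. Lrrtm3 (chr10:63928472-64090277, minus strand) was at 33.0, 32.8 and 34.8 CPM in control mice and at 36.6, 38.3 and 38.3 CPM in PLDP mice. Lrrtm1 (chr6:77242689-77257791, plus strand) was at 44.4, 42.7 and 40.7 CPM in control mice and at 45.2, 48.5 and 46.3 CPM in PLDP mice. Neither gene's groups overlapped, and the margin was narrower for Lrrtm1. The log2 fold change of Lrrtm3 was 0.17 ± 0.06 (SE), with a p of 0.00887 and an adjusted p of 0.399 by edgeR, or 0.147 without mouse 17. That of Lrrtm1 was 0.13 ± 0.06 (SE), with a p of 0.0318 and an adjusted p of 0.522 by edgeR, or 0.247 without mouse 17, and the call was lost without control mouse 5, control mouse 10, PLDP mouse 22 or PLDP mouse 26. Lrrtm2 had a log2 fold change of 0.02 ± 0.06 (SE) and Lrrtm4 one of -0.07 ± 0.07 (SE), with overlapping groups in each.

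Lrfn proteins, also called SALMs, have leucine-rich repeats too, and some of them bind Dlg4. Lrfn2 (chr17:48932379-49097588, plus strand) was at 17.7, 15 and 17.2 CPM in control mice and at 17.8, 20.3 and 21.5 CPM in PLDP mice. It had the highest fold change of the 46 genes and is among the least abundant of them, and mouse 17 was above control mouse 2 by less than the spread of the controls. The log2 fold change of Lrfn2 was 0.25 ± 0.09 (SE), with a p of 0.0115 and an adjusted p of 0.424 by edgeR, or 0.0836 without mouse 17, and the call was lost without control mouse 5 or PLDP mouse 26. Lrfn1, the most abundant per length of the family, was at 57.8, 55.9 and 52.6 CPM in control mice and at 61.4, 58.5 and 55.0 CPM in PLDP mice, with overlapping groups. Lrfn3 and Lrfn4 had log2 fold changes of 0.10 ± 0.07 and 0.04 ± 0.05 (SE), and Lrfn5 one of -0.05 ± 0.06 (SE).

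The Slitrk proteins, partners of the receptor phosphatases, included no called gene. Slitrk1 was at 69.8, 65.7 and 67.7 CPM in control mice and at 64.3, 74.0 and 65.6 CPM in PLDP mice. The groups overlapped, with PLDP mice at both ends. Slitrk5, at 51.2, 49.2 and 48.7 CPM in control mice and at 47.7, 60.5 and 51.5 CPM in PLDP mice, had a log2 fold change of 0.10 ± 0.07 (SE), and its p was 0.0095 without mouse 17 by edgeR. Slitrk2, Slitrk3 and Slitrk4 had log2 fold changes between -0.08 and -0.03. Il1rapl1, another partner of the phosphatases and the least abundant tested gene, was at 12.9, 12.7 and 13.4 CPM in control mice and at 12.4, 14.2 and 15.4 CPM in PLDP mice. Its groups overlapped too.

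Among the Cadm proteins, immunoglobulin-type adhesion molecules, and the Eph receptors with their ligand ephrin, 0 of 8 genes were called, and their median log2 fold change was -0.005. Cadm3 was at 548.1, 525.8 and 540.7 CPM in control mice and at 553.4, 554.3 and 513.9 CPM in PLDP mice, so that the PLDP mice held both the highest and the lowest value. Efnb3, the ephrin, was at 137.9, 146.0 and 135.4 CPM in control mice and at 144.1, 136.0 and 133.6 CPM in PLDP mice, with overlapping groups. The 6 further genes were Cadm1, Cadm2, Epha4, Ephb1, Ephb2 and Ephb3, whose log2 fold changes lay between -0.04 and 0.06. The log2 fold changes of Cadm1 and Cadm3 were 0.01 ± 0.04 and 0.01 ± 0.04 (SE).

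By group, 5 of the 16 scaffold genes were called, with a median log2 fold change of 0.052. Of the 5 neurexin and phosphatase genes 3 were called, with a median of 0.081. Of the 17 tested neuroligin, leucine-rich repeat and Il1rapl1 genes 4 were called, with a median of 0.04. Of all features tested, 4.91% were called higher. Without mouse 17, when 6.86% of all features were called higher, the scaffolds had 8 genes called higher and 1 lower with a median of 0.084, the neurexins and phosphatases 4 higher with a median of 0.095, and the third group 5 higher with a median of 0.048. The Cadm, Eph and ephrin genes then had a median of 0.034 and 0 calls. No difference between these groups was tested.

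**Figure D2:**
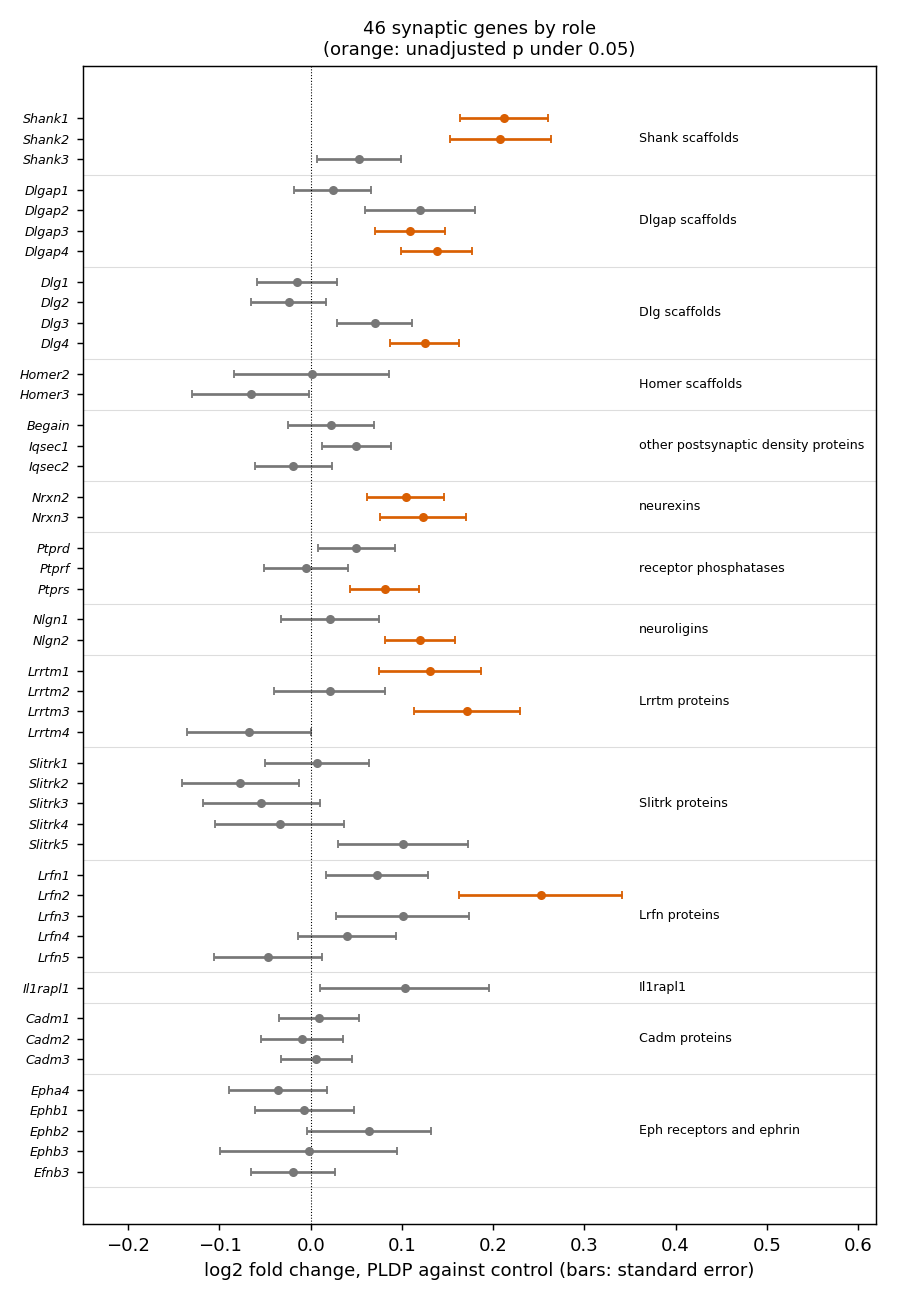
Log2 fold change of each of the 46 genes tested, PLDP against control, with its standard error as a bar, by role. Orange marks an unadjusted p under 0.05. The 12 orange genes lie to the right of 0 and belong to the Shank, Dlgap, Dlg, neurexin, phosphatase, neuroligin, Lrrtm and Lrfn families.

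Per exon length the genes differed far more from each other than between the diets. Levels per length are CPM per kb of merged exons, as mean ± SD over the 6 mice, and their order depends on the length used. Cadm3 and Dlgap3 were the highest, at 74.4 ± 2.25 and 73.8 ± 3.4 CPM per kb, and did not differ beyond their spread. Shank1 at 43.9 ± 4.26, Efnb3 at 43.6 ± 1.59 and Nlgn2 at 42.2 ± 2.07 CPM per kb came next and overlapped each other. Dlg4 followed at 38.4 ± 2.11 CPM per kb, and then came Nrxn2 at 31.4 ± 1.69, Begain at 30.4 ± 1.21, Dlgap4 at 29.1 ± 1.63, Homer3 at 26.7 ± 2.07 and Ptprs at 26.2 ± 0.996 CPM per kb. In this run the means of Nrxn2 and Begain, and of Homer3 and Ptprs, differed by less than the SD of either gene's values. The leucine-rich repeat genes were lower, with Lrrtm1 at 14.7 ± 0.898, Lrfn1 at 14.5 ± 0.779 and Slitrk1 at 12.7 ± 0.665 CPM per kb as the most abundant of their families. Il1rapl1 was at 1.45 ± 0.123 CPM per kb. Divided by the longest single transcript instead, Cadm3 was at 104.6, Dlg4 at 80.5, Dlgap3 at 79.3, Nrxn2 at 65.0 and Ptprs at 57.4 CPM per kb, all above Shank1 at 47, Nlgn2 at 43.8 and Efnb3 at 43.6, while the most abundant member of each of the 13 families with several genes was the same. By merged exons, the called genes were found from 73.8 CPM per kb, for Dlgap3, down to 5.7 CPM per kb, for Lrfn2. The tested genes had a median of 94.7 CPM before division by length, beside 16.8 CPM for all features tested.

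**Figure D3:**
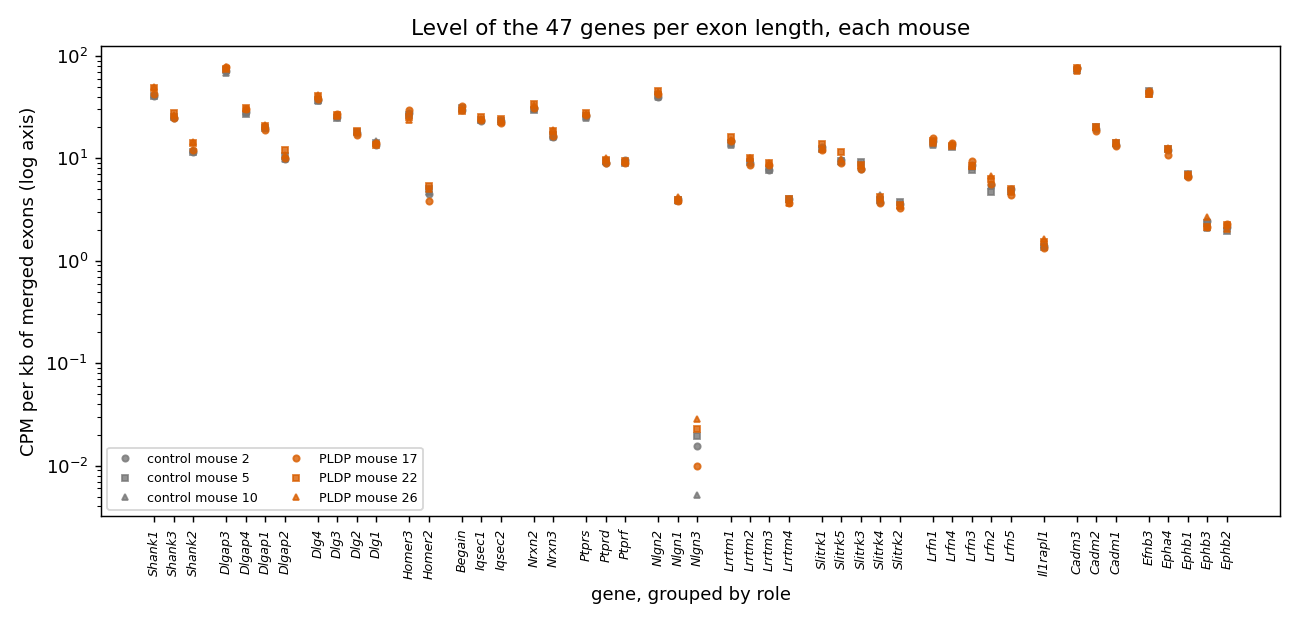
Level of each of the 47 genes in each of the 6 mice as CPM per kb of merged exons, on a log axis, with genes grouped by role and ordered by level. Grey points are control mice and orange points PLDP mice. Nlgn3 lies far below the others, and for nearly every gene the mice lie close together beside the distance between genes.

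Ratios within a family do not depend on the scaling of a library, and 4 pairs of a called and an uncalled gene were followed mouse by mouse as log2 ratios of CPM per kb. The pairs were chosen after their values were seen, 1 gene called and 1 not, so a difference in the ratios was built into the choice and they are a description with no test. The log2 ratio of Shank1 to Shank3 in CPM per kb was 0.70, 0.67 and 0.68 in control mice and 0.81, 0.79 and 0.93 in PLDP mice. That of Dlg4 to Dlg2 was 1.08, 1.03 and 1.0 in control mice and 1.19, 1.15 and 1.21 in PLDP mice. In these pairs mouse 17 was as far from the controls as mouse 22 or farther. On the same scale, the log2 ratio of Dlgap4 to Dlgap1 was 0.52, 0.44 and 0.48 in control mice and 0.66, 0.58 and 0.54 in PLDP mice, and that of Lrrtm3 to Lrrtm4 was 0.94, 0.95 and 1.06 in control mice and 1.22, 1.15 and 1.30 in PLDP mice. In all 4 pairs every PLDP mouse lay above every control mouse.

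Seen by mouse, the higher levels came mainly from PLDP mice 22 and 26. Against the control mean, the median log2 difference over the 46 genes was 0.07 in mouse 22, with 37 genes above the control mean, and 0.05 in mouse 26, with 33 above it. In mouse 17 the median was 0.0 and 23 genes were above it. Mouse 17 was the lowest PLDP mouse in 33 of the 46 genes and the lowest of all 6 mice in 16.

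Markers of the tissue's cell types, listed with earlier results of these data known, were read beside these values as summed CPM per list. Markers of cortical and hippocampal projection neurons, cells rich in these synapses, summed to 3354 to 3452 CPM in control mice and 3614 to 3669 CPM in PLDP mice, and 3 of its 8 genes were called higher. Brainstem and spinal neuron markers summed to 221.0 to 230.8 CPM in control mice and 148.5 to 188.7 CPM in PLDP mice, with 6 of 8 called lower. Neither list overlapped between the diets, and they lay on opposite sides. Choroid plexus markers, at 756.4 to 813.2 CPM in control and 593.3 to 754.0 CPM in PLDP mice, and microglia markers, at 315.0 to 331.0 and 308.0 to 313.6 CPM, were also lower in every PLDP mouse, with 2 of 8 and 1 of 8 genes called lower. Immediate early genes, which neurons switch on with activity, summed to 706.7 to 811.2 CPM in control mice and to 672.2, 911.2 and 991.6 CPM in mice 17, 22 and 26, so that mouse 17 was again apart from mice 22 and 26, and 2 of 8 were called higher. Lists for neurons in general, striatum, cerebellar granule cells, oligodendrocytes, astrocytes and endothelium overlapped between the diets. Of these, neurons had 1 of 7 genes called lower, oligodendrocytes 2 of 8 lower, astrocytes 1 of 8 lower, endothelium 2 of 8 higher, and striatum and granule cells 0 of 8. Of all single features tested, 4.91% were called higher and 3.69% lower. In 7.29% of them the PLDP mice all lay above the controls, and in 6.90% all below. No marker was at 0 in any mouse. The part of these differences in tissue content in the synaptic genes was not tested.

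**Figure D4:**
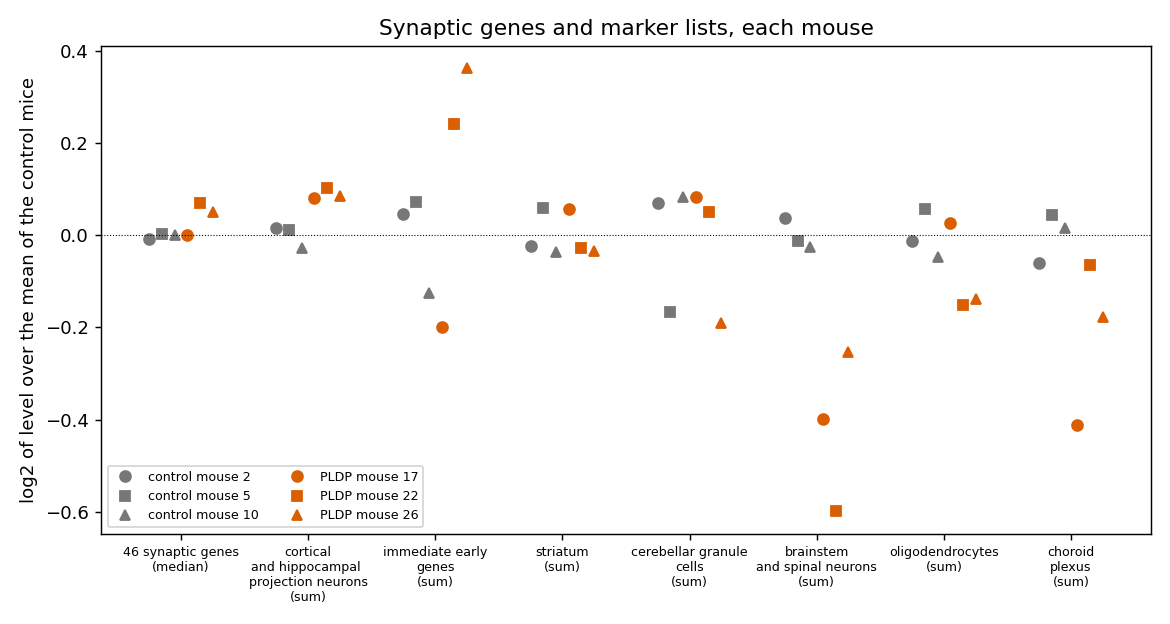
Log2 of the level in each of the 6 mice over the mean of the control mice, for the median of the 46 synaptic genes and for the summed CPM of 7 marker lists. Grey points are control mice and orange points PLDP mice, with 1 symbol per mouse number. The PLDP mice lie above the controls for projection neurons and below them for brainstem and spinal neurons and for choroid plexus.

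With all 6 mice, the GC content of the longest transcript moved with the fold changes. Its median was 58.3% in the 12 called genes and 50.3% in the 34 others, beside 49.6% over the 17888 features tested that had a value. Among the 23 genes with the higher GC content 9 were called, with a median log2 fold change of 0.073, and among the 23 with the lower GC content 3 were called, with a median of 0.009. Across the 46 genes, which share libraries and are not independent, Pearson's r between GC content and log2 fold change was 0.37 and Spearman's rho was 0.4, beside a Pearson's r of 0.06 over all features tested with a value. Without PLDP mouse 17 the relation was weaker, with a Pearson's r of 0.11 and a Spearman's rho of 0.1, and the medians of the 23 genes with higher and the 23 with lower GC content were 0.048 and 0.05, with 11 and 6 called higher. With GC content and length corrected in each library, 10 of the 12 calls were kept. The p of Nrxn2 was then 0.0724 and that of Ptprs 0.307 by edgeR, while that of Shank1 was 0.000414 and that of Lrrtm3 0.00167. The part of GC content in the remaining differences was not tested.

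**Figure D5:**
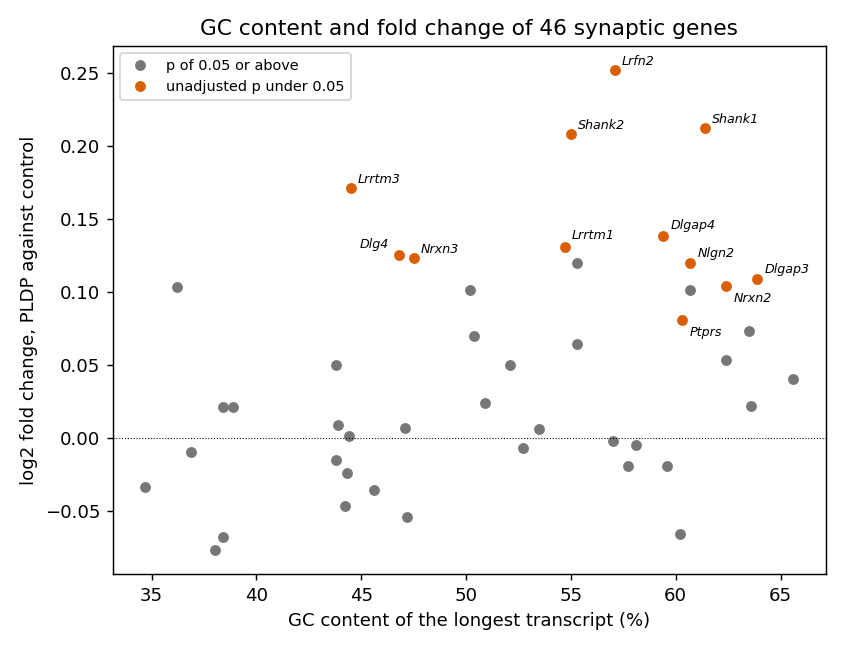
Log2 fold change, PLDP against control, against the GC content of the longest transcript in percent, 1 point for each of the 46 genes tested, from the fit of all 6 mice. Orange marks the 12 genes with an unadjusted p under 0.05, which are named. Of the called genes, 9 are among the 23 with the higher GC content, and Lrrtm3, Dlg4 and Nrxn3 lie at lower GC content.

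The promoters of the called genes were read because the genes moved in 1 direction and because CREB, which binds the cAMP response element, is a known factor of memory-related transcription. RefSeq promoter windows on GRCm38.p6, each 250 bases before to 50 bases after a transcription start, matched 35 of the 47 genes, among them 8 of the 12 called genes. Shank1, Shank2, Nrxn2 and Lrfn2 had no entry. The letters TGACG, the core of the response element, were searched on both strands and stood in 20.8% of all 32851 windows, in 21.1% of the 57 windows of the 35 genes and in 4 of the 13 windows of called genes. These 4 windows are printed from 5′ to 3′ along the gene's strand, with the core in capitals.

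Dlgap4, chr2:156720715-156721014, plus strand, at a start 107260 bases inside the gene:
Dlgap4: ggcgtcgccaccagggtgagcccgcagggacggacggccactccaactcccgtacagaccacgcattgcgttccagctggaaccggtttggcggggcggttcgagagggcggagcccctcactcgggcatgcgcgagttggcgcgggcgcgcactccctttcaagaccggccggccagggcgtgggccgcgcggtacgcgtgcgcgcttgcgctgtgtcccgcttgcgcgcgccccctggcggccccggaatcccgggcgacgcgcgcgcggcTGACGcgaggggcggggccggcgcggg
Nlgn2, chr11:69837735-69838034, minus strand, at the gene's start:
Nlgn2: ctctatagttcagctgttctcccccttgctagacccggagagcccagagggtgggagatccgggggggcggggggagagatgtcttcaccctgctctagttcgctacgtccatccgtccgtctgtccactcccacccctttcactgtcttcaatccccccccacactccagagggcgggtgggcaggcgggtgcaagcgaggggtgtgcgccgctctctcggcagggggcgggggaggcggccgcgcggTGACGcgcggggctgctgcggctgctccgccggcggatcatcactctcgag
Dlg4, chr11:70023732-70024031, plus strand, at a start 7040 bases inside the gene:
Dlg4: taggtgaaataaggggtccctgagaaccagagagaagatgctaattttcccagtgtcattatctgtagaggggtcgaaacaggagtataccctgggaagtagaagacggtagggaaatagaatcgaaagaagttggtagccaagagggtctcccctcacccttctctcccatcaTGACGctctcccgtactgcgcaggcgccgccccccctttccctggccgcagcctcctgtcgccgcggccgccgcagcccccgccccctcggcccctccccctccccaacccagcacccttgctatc
Ptprs, chr17:56476431-56476730, minus strand, at a start 3 bases from the gene's:
Ptprs: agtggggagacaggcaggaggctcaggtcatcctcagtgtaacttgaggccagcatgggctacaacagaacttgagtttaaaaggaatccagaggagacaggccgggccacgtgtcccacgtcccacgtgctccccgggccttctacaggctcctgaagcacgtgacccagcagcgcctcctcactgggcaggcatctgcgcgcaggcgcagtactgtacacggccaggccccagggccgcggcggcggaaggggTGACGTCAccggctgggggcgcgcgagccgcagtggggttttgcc

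The window of Ptprs holds the core on both strands in overlapping positions, which together spell the full palindrome TGACGTCA, present in 1.79% of all windows and in 3.51% of those of the 35 genes. It was the 1 window of a called gene with the palindrome. The GC box, GGGCGG on either strand, stood in 35.7% of all windows, in 47.4% of the windows of the 35 genes and in 6 of the 13 of called genes. The E-box CACGTG, the same on both strands, stood in 7.15%, in 14.0% and in 1 of the 13, that of Ptprs. The median number of CpG dinucleotides per window was 7 over all windows, 15 in those of the 35 genes and 12 in those of called genes. These matches are a description of the letters and were not tested against the fold changes.

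Of 76 other genes of synaptic adhesion and scaffolding, listed beside the 47, 74 were tested. At an unadjusted p under 0.05, 9 of them were called higher, or 12.2%, and 1 lower, beside 4.91% and 3.69% of all features tested. Their median log2 fold change was 0.014. Without PLDP mouse 17, 20 were called higher, beside 6.86% of all features in that fit. Nptx2, a secreted pentraxin that gathers AMPA receptors, was at 42.1, 42.6 and 45.8 CPM in control mice and at 46.8, 55.0 and 55.9 CPM in PLDP mice. The groups of Nptx2 did not overlap and mouse 17 was nearest to the controls, as in Shank1. Its log2 fold change was 0.27 ± 0.07 (SE), with a p of 0.000786 and an adjusted p of 0.194 by edgeR. Adgrl1, a latrophilin that binds teneurins and Flrt proteins, was at 524.4, 515.9 and 501.1 CPM in control mice and at 564.2, 559.9 and 562.0 CPM in PLDP mice. Tenm2, a teneurin, was at 71.0, 72.3 and 72.9 CPM in control mice and at 78.2, 79.6 and 86.7 CPM in PLDP mice. Neither gene's groups overlapped, and mouse 17 was not apart from the other PLDP mice in Adgrl1. Flrt1 was at 42.7, 40.0 and 38.2 CPM in control mice and at 41.2, 48.3 and 53.8 CPM in PLDP mice, with mouse 17 below control mouse 2. The log2 fold changes of Adgrl1, Tenm2 and Flrt1 were 0.13 ± 0.04, 0.18 ± 0.05 and 0.24 ± 0.08 (SE), with adjusted p of 0.273, 0.306 and 0.363 by edgeR. The 1 gene called lower was Mdga2, which encodes a protein that binds neuroligins and hinders their binding to neurexins. It was at 37.7, 39.7 and 39.6 CPM in control mice and at 33.8, 35.2 and 37.9 CPM in PLDP mice, so that mouse 26 lay within the control values. Its log2 fold change was -0.13 ± 0.06 (SE), with a p of 0.0422 and an adjusted p of 0.561 by edgeR.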

How the data were processed

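RNA-seq was performed on whole brains of 3 control and 3 PLDP mice from stranded libraries of polyadenylated RNA, sequenced in pairs on a NovaSeq. The authors deposited whole-number read counts per feature, without normalization, in 1 file per mouse. The submitters' processing notes name cutadapt 2.9, HISAT2 2.2.0, featureCounts 2.6.0, DESeq2 1.6.3 and the builds GRCm38 and GRCh38; strand and multi-mapping settings of the counting are not given in the sources used here, so that values of overlapping genes and close paralogs are uncertain. Of 60354 features, 55034 had Ensembl identifiers, 54777 of them in GENCODE M21, and 5320 were numbered; all were kept in the tests.

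Features were filtered with filterByExpr (minimum count 10, minimum total 15), scaled with TMM factors and tested with edgeR 4.0.16 (R 4.3.3; glmQLFit, glmQLFTest) in a model that held diet alone, over the 18580 features that passed, with two-sided p-values and Benjamini-Hochberg adjustment. The standard error was the log2 fold change divided by the square root of F. The procedure was also run on simulated counts with 200 changed genes, and the outcome is not given here. The alternatives were other scaling factors, other filters, DESeq2 1.42.0, voom (limma 3.58.1), edgeR's likelihood ratio test, GC and length splines with 5 degrees of freedom, and leaving out each mouse. An adjusted p that DESeq2 withheld was left out.

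Genes were named with all 6 values if their unadjusted p was under 0.05, if it was up to 0.1, or if they were the most abundant per length in their family; of the other synaptic genes, the 5 with the lowest p in each direction under 0.05 were named, except 1 that is not reported here, and further genes named were chosen after their values were seen. The genes and all lists were chosen with earlier results of these data known. Of the marker lists, Tubb3 was not analysed here. No fold changes or tests of the authors were used.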

Additional observations from a re-analysis of the deposited data

How the results depend on the processing

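All 12 genes were called with RLE factors, library size only, at least 10 counts in every mouse and voom; upper-quartile factors added Dlgap2, no filter added Dlgap2 and lost Ptprs, DESeq2 lost Lrrtm1, the likelihood ratio test lost Ptprs, and the GC and length correction lost Nrxn2 and Ptprs. Leaving out 1 mouse gave 7 to 17 genes called higher, with 7 without control mouse 10 or PLDP mouse 26, and 0 to 1 called lower; of all features 3.36% to 6.86% were called higher in these fits, 4.93% without control mouse 10 and 3.91% without PLDP mouse 26. Shank1, Shank2, Dlgap4, Dlg4, Nlgn2 and Lrrtm3 were called in all 6 of these fits. Genes with an adjusted p under 0.05 numbered 2 with no filter (Shank1 and Shank2), 1 with DESeq2 and 1 with the likelihood ratio test (Shank1 in both), beside 0.499%, 0.102% and 0.404% of all features in these fits, and 0 to 5 when a mouse was left out, the 5 without PLDP mouse 17, where 182 of 18848 features tested passed. Without a mouse, 12 to 23 genes had all PLDP mice above the controls, 23 without PLDP mouse 17, and 0 to 4 all below, 4 without PLDP mouse 22; separation is more frequent with 1 mouse fewer, and over all features tested 14.7% lay above without PLDP mouse 17 and 12.2% below without PLDP mouse 22. Of the other synaptic genes, 6 to 20 were called higher when a mouse was left out, the 20 without PLDP mouse 17; called lower were 2 with no filter, 0 with DESeq2 and 0 to 2 when a mouse was left out, 0 without control mouse 5 or 10 and 2 without PLDP mouse 26. The cause of these changes was not tested. For the 12 called genes and Dlgap2, 13 in all, 167 alternative values kept direction and side of the threshold, 25 kept only the direction, 3 passed the threshold anew and 0 turned. Without PLDP mouse 17, 10 of the 46 genes turned direction, all uncalled in both fits and with log2 fold changes within 0.036 of 0 with all mice. No paired analysis was possible because the diets share no mouse numbers.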
